A study of Ovis aries with 48 samples.

Results

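The comparison described here set the small RNAs of perirenal fat against those of visceral fat in untreated female sheep (Ovis aries). It used 8 of the 48 libraries of the series: 1 perirenal and 1 visceral library from each of 4 control sheep, numbered 098, 131, 132 and 201, chosen by their tissue, treatment and sheep labels and paired by sheep number. The control sheep belonged to the cohort of a prenatal testosterone study, and the labels do not say whether their mothers received vehicle. A second set of 4 sheep from that cohort (48, 185, 233 and 255), whose mothers had been injected with 100 mg of testosterone propionate between gestational days 30 and 90 (prenatal T), served as a separate look at the same depots. All sheep were housed together on a maintenance diet that kept them from becoming obese, and no age or breed is given.

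Perirenal fat surrounds the kidney behind the peritoneum, whereas visceral fat lies inside the abdominal cavity and is covered by mesothelium. The perirenal depot of newborn lambs is brown fat that is replaced by white fat after birth. MicroRNAs are short RNAs that guide Argonaute proteins to messenger RNAs and lower their translation or stability. Several of them sit within HOX clusters, whose genes keep a record of body position into adult fat, and others restrain or promote the formation of adipocytes. Small nucleolar RNAs (snoRNAs) guide chemical modification of ribosomal RNA, small nuclear RNAs (snRNAs) form the spliceosome, and long non-coding RNAs (lncRNAs) are a mixed class. The bulk tissue holds adipocytes, vessels, immune cells and surface cells, and fewer cells of a type and less RNA per cell cannot be told apart.

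Libraries held between 283463 and 1253005 reads in the 4 classes, and microRNAs took 83.9% to 88.5% of them. The perirenal library of sheep 098 was the shallowest of its group, with 283463 reads against 1164153 or more in the other 3. Visceral libraries held 292002 to 875937 reads, each fewer than those 3, so depth differed with depot. The part of depth in the differences of low RNAs was not tested. Its snoRNA share was 2.42%, against 0.335% to 0.459% in the other perirenal libraries and 0.915% to 2.22% in the visceral ones. By the numbers in their labels the libraries fall into an early set (up to 48) and a later set (from 81). Sheep 131 and 132 had both libraries in the early set and sheep 098 both in the later one, while sheep 201 had an early perirenal and a later visceral library. What these numbers stand for is not given in the labels. None of the tables covers an adipocyte-defining messenger RNA, so the fat label itself was not checked.

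Of 436 RNAs with enough reads to test, 14 differed between the depots (limma, Benjamini-Hochberg adjusted p under 0.05 within each class), which is 3.21% of those tested. Each of the 14 was a microRNA. Among the 76 microRNAs tested 14 were called (18.4%), of which 7 were higher in perirenal fat (9.21%) and 7 were lower (9.21%); over all classes these are 1.61% each. The higher ones were MIR10B, MIR143, MIRLET7F, MIR10A, MIR148A, MIR29B-1 and MIR29B-2, and the lower ones were MIR200B, MIR221, MIRLET7B and the DLK1-DIO3 microRNAs MIR154B, MIR433, MIR380 and MIR485. Of the lower ones, all except MIR200B had a small positive difference on the size factors as deposited. Those factors had been set within each depot and shift the microRNA difference by 1.39 on the log2 scale relative to the common scale used here. On those deposited factors limma called 90 RNAs higher and 1 lower, against 14 and 5 with CPM and 7 and 10 with TMM factors. Because MIR29B-1 and MIR29B-2 had identical reads in every library, the 14 calls rest on 13 distinct sets of values. The perirenal and visceral libraries did not overlap for 10 of the 76 microRNAs (13.2%), and for 39 of the 436 RNAs of all classes (8.94%). The direction was the same in 4 of 4 sheep for 30 of the 76 microRNAs (39.5%).

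**Figure D1:**
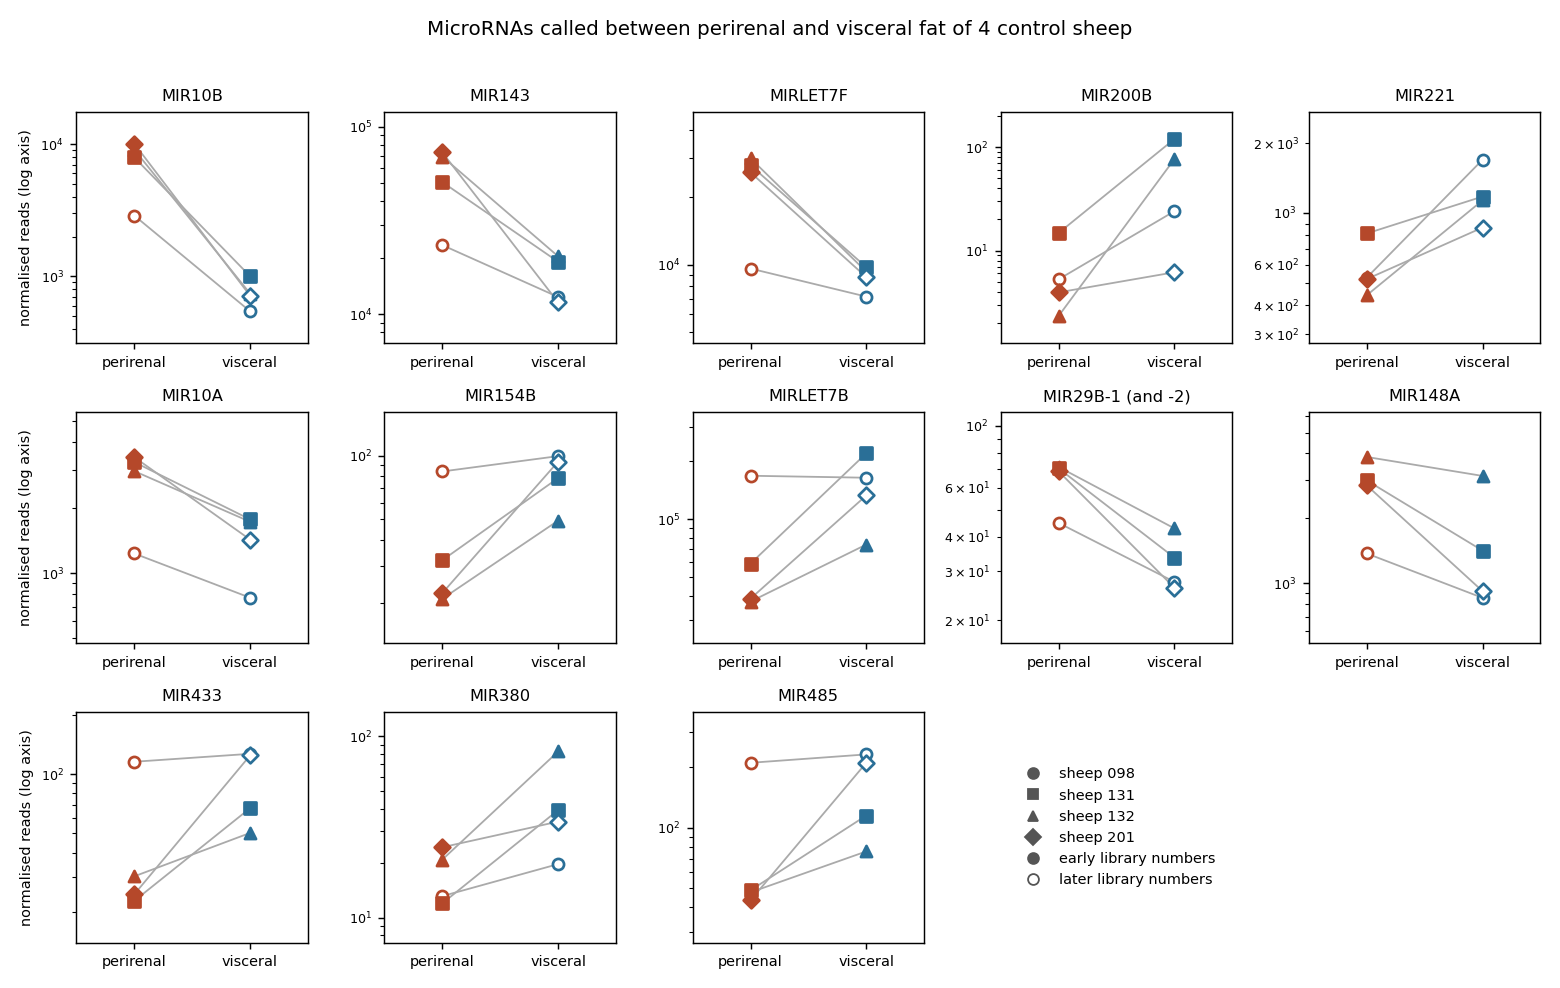
Normalised reads (log axis) of the 13 distinct called microRNAs in perirenal (red) and visceral (blue) fat of the 4 control sheep, with lines joining the libraries of 1 sheep; filled symbols are early library numbers and open symbols later ones. The perirenal MIR10B values, from 2883 to 10076 normalised reads, sit above all visceral values, and the perirenal library of sheep 098 is the lowest perirenal one for MIR10B, MIR143 and MIRLET7F.

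The 2 HOX-cluster microRNAs measured here, MIR10A and MIR10B, were both called higher in perirenal fat, where 9.21% of all microRNAs tested were. Of the 76 microRNAs tested MIR10B had the difference of largest size. MIR10B, which lies in HOXD4 in the ARS-UI_Ramb_v3.0 annotation, had 2883, 7937, 9085 and 10076 normalised reads in the perirenal fat of sheep 098, 131, 132 and 201. In visceral fat of the same sheep it had 544, 1003, 741 and 715 normalised reads. Every perirenal library lay above every visceral one, and the lowest perirenal value came from sheep 098. The means were 7495 ± 3197 and 751 ± 189 normalised reads (SD, n = 4), a log2 difference of 3.20 with a standard error of 0.29 (limma adjusted p = 2.16e-05).

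MIR10A, which shares its family with MIR10B and lies in HOXB3, was also higher in perirenal fat, but by less. It had 1231, 3249, 2952 and 3424 normalised reads in perirenal fat and 770, 1768, 1724 and 1426 in visceral fat, in the same order of sheep. All 4 sheep had more in perirenal fat, although the perirenal value of sheep 098 fell within the visceral range. The log2 difference was 0.90 (standard error 0.24, limma adjusted p = 0.0413), and the call was lost without sheep 131, 132 or 201 in turn.

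The ratio of MIR10B to MIR10A reads is free of any scaling between libraries. It was 2.34, 2.44, 3.08 and 2.94 in the perirenal libraries and 0.707, 0.567, 0.430 and 0.501 in the visceral ones. MIR10B thus exceeded MIR10A in all 4 perirenal libraries and was below it in all 4 visceral ones. The mean log2 ratio differed by 2.31 ± 0.49 (SD, n = 4), with an exact permutation p of 0.13, the smallest that 4 pairs can give. MIR10B had the largest difference of the microRNAs tested in these same libraries. The direction of its ratio to MIR10A was therefore all but given in the control sheep, and this p adds no separate support. In the prenatal T sheep the same ratio was 2.73 to 3.79 in perirenal fat and 0.555 to 1.08 in visceral fat. The ratio was higher in perirenal fat in 4 of 4 of those sheep as well, and neither set of sheep showed overlap between the depots. Its depot difference was smallest in sheep 255, at 2.73 and 1.08, the 1 prenatal T sheep with both libraries in the early set.

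**Figure D2:**
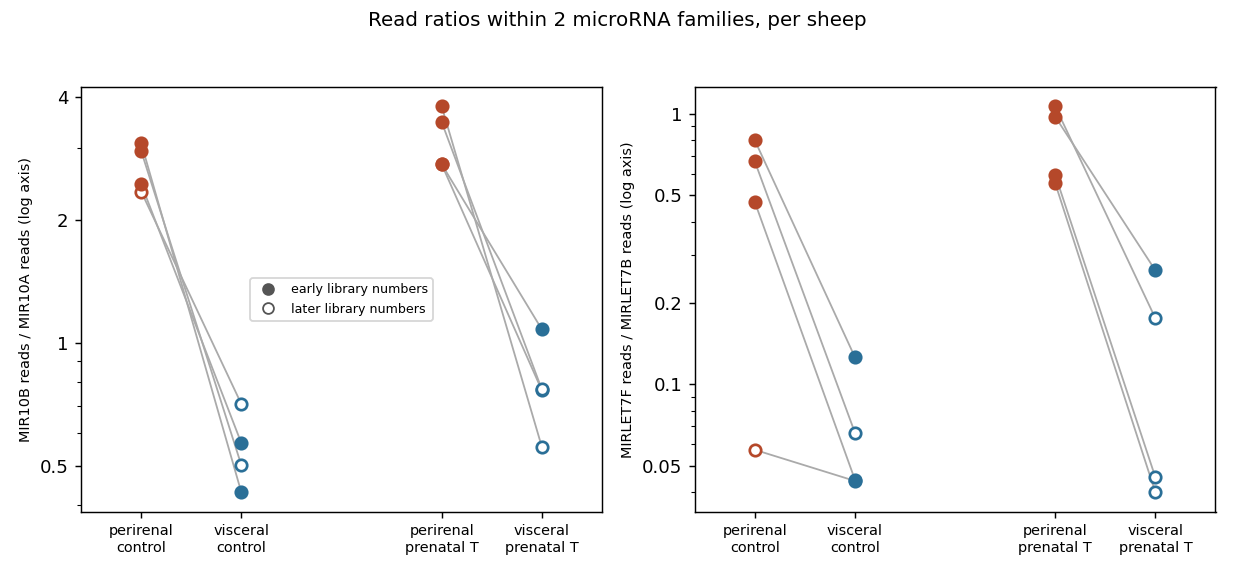
Ratio of reads (log axes) of MIR10B to MIR10A (left) and of MIRLET7F to MIRLET7B (right) in each library of 4 control and 4 prenatal T sheep; lines join the depots of 1 sheep, and open symbols are later library numbers. The MIR10B to MIR10A ratio separates the depots in both sets of sheep, while the perirenal MIRLET7F to MIRLET7B ratio of control sheep 098, at 0.0573, lies among the visceral values.

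Among the 4 fat depots of the control sheep, MIR10B had its highest mean in perirenal fat, at 15077 ± 7374 CPM (SD, n = 4), that is, reads scaled to a common total of microRNA reads per library. Subcutaneous fat followed with 6920 ± 2838, visceral fat with 1311 ± 330 and epicardial fat with 817 ± 365 CPM. Perirenal and subcutaneous values overlapped, and so did visceral and epicardial values. The lowest value of the upper pair of depots, 2999, was above the highest value of the lower pair, 1639. Library sets differed between these pairs: perirenal and subcutaneous fat each had 3 early and 1 later library. Visceral fat had 2 of each, and epicardial fat had 0 early and 4 later ones. The part of the library set in this ranking was not tested.

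MIR143, a microRNA abundant in smooth muscle that also promotes adipocyte differentiation, was the next call. Its perirenal values in sheep 098, 131, 132 and 201 were 23388, 50694, 69367 and 72965 normalised reads, and its visceral values were 12369, 19058, 20371 and 11570. The depots did not overlap, but the lowest perirenal value, in sheep 098, came close to the highest visceral one. The log2 difference was 1.69 (standard error 0.30, limma adjusted p = 0.00623). MIR143 was the single tested member of the smooth muscle list, so no second marker of that cell type was measured. As the level of 1 gene cannot tell vessel cells from adipocytes, the part of smooth muscle in this difference was not tested.

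The let-7 family, which restrains proliferation and is among the most abundant microRNAs of adult tissue, was split. MIRLET7F, whose locus lies in HUWE1, had 9612, 27787, 29877 and 25842 normalised reads in perirenal fat. In visceral fat it had 7202, 9750, 9304 and 8796 normalised reads. Sheep 131, 132 and 201 had perirenal values well above the visceral range, whereas that of sheep 098 fell within it. The log2 difference of MIRLET7F was 1.29 (standard error 0.28, limma adjusted p = 0.0165).

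MIRLET7B, the family member annotated near PPARA, went the other way. It had 167810, 58727, 37328 and 38656 normalised reads in perirenal fat and 163889, 219494, 73780 and 132649 in visceral fat. Sheep 131, 132 and 201 had less in perirenal fat, while sheep 098 had slightly more. Its log2 difference was -1.16 (standard error 0.33, limma adjusted p = 0.0427), turned to 0.23 on the size factors as deposited, and was -1.56 without sheep 098. The call was lost without sheep 131, with DESeq2 and with a library-set term in place of the block.

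Of the 7 let-7 members tested, 1 was called higher and 1 lower, against 18.4% of all microRNAs tested. Their median log2 difference was -0.55, against 0.11 over all 76 microRNAs; on the size factors as deposited these medians were 0.85 and 1.47. MIRLET7C, at -0.81 (0.58 as deposited), missed the threshold (limma adjusted p = 0.0626). Together the family took 69.4%, 51.8%, 45.8% and 43.6% of microRNA reads in perirenal fat and 71.7%, 69.5%, 55.8% and 69.5% in visceral fat of sheep 098, 131, 132 and 201. Every sheep thus had the smaller let-7 share in perirenal fat, although the 2 ranges overlapped. MIRLET7F made up 2.20% of the let-7 reads in the perirenal library of sheep 098 and 10.5% to 13.8% in the other 3, against 1.59% to 3.69% in visceral fat. The ratio of MIRLET7F to MIRLET7B reads was 0.0573, 0.473, 0.800 and 0.668 in perirenal fat and 0.0439, 0.0444, 0.126 and 0.0663 in visceral fat. It was higher in perirenal fat in 4 of 4 sheep (exact permutation p = 0.13, the smallest possible). These are the members called in opposite directions in the same libraries. The direction of their ratio was therefore all but given, and its p adds no separate support.

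MIR200B, a microRNA of epithelial cells and mesothelium that holds back ZEB1 and ZEB2, was low in both depots and lower in perirenal fat. It had 5.27, 14.8, 2.33 and 3.94 normalised reads in perirenal fat, which stand for 2, 32, 5 and 9 reads. Visceral fat had 24.1, 120.5, 77.1 and 6.16 normalised reads, which stand for 28, 43, 72 and 4 reads. The direction was shared by all 4 sheep, the depots overlapped, and the visceral value of sheep 201 was near the perirenal ones. The log2 difference was -2.51 (standard error 0.55, limma adjusted p = 0.0165).

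The other 2 microRNAs of the epithelial and mesothelial list in the tables were also low. MIR200A, which is transcribed with MIR200B, was at 0 to 1.83 CPM in perirenal fat and 2.72 to 16.6 in visceral fat. MIR200A had at most 7 reads in a library and was too low to test. MIR200C, from another locus, had 5 to 14 reads per library, at 10.97 to 29.3 CPM in perirenal fat and 16.3 to 25.3 in visceral fat, and was not called (log2 difference -0.52, limma adjusted p = 0.41). Of the 3 listed members, 2 were tested and 1 was called lower, where 9.21% of all microRNAs tested were. Their summed level was 19.7 to 40.6 CPM in perirenal fat and 39.4 to 208 in visceral fat, so the 2 ranges overlapped slightly. Their part in the other differences was not tested.

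MIR221, a microRNA of endothelium and of proliferating cells that restrains adipocyte formation, was lower in perirenal fat. Its perirenal values were 527, 816, 443 and 519 normalised reads and its visceral values 1696, 1177, 1134 and 866. No perirenal library reached the lowest visceral one. Its log2 difference of -1.08 (standard error 0.27, limma adjusted p = 0.0322) turned to 0.31 on the size factors as deposited. The call was lost with CPM and without sheep 132. Of MIR23A, MIR23B, MIR27A and MIR221, the tested members of 1 list, 1 of 4 was called lower and none higher, against 18.4% of all microRNAs tested (9.21% lower), with a median of -0.29 (1.10 as deposited).

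MIR29B-1 and MIR29B-2 are copies of a microRNA that targets collagen messengers and restrains insulin signalling. They had 44.8, 70.3, 71.2 and 68.6 normalised reads in perirenal fat and 27.5, 33.6, 42.8 and 26.2 in visceral fat. The depots did not overlap, and the lowest perirenal value was again that of sheep 098. Their log2 difference was 0.95 (standard error 0.28, limma adjusted p = 0.0427), and the calls were lost without sheep 131, 132 or 201 in turn and with DESeq2. MIR29A, whose seed is that of MIR29B, was not called (log2 difference -0.06, turning to 1.33 on the size factors as deposited).

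MIR148A, a microRNA that promotes adipocyte differentiation, had 1375, 2999, 3855 and 2844 normalised reads in perirenal fat and 856, 1418, 3148 and 920 in visceral fat. It was higher in perirenal fat in all 4 sheep, with overlap through the high visceral value of sheep 132. The log2 difference was 0.92 (standard error 0.28, limma adjusted p = 0.0458). Without sheep 098, 131 or 201 in turn it was no longer called.

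The DLK1-DIO3 domain is an imprinted region that carries one of the largest microRNA clusters of mammals and codes for DLK1, an inhibitor of adipocyte differentiation. Of its 55 listed microRNAs, 29 had enough reads to test, and 4 were called, against 18.4% of all microRNAs tested (9.21% lower), each lower in perirenal fat on the common scale and each slightly higher on the size factors as deposited. MIR433, which overlaps RTL1, had 116, 22.7, 30.2 and 24.5 normalised reads in perirenal fat and 127.2, 67.2, 50.3 and 125 in visceral fat. MIR154B, MIR380 and MIR485 had log2 differences of -1.18, -1.14 and -1.07, with limma adjusted p of 0.0413, 0.0458 and 0.0499, against -1.17 and 0.0458 for MIR433. The calls of MIR433, MIR154B and MIR485 were lost without sheep 131 or 201, and that of MIR380 without sheep 131 or 132. For MIR433, MIR154B and MIR485 the perirenal library of sheep 098 was the highest perirenal one and close to its visceral partner.

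Differences of the domain's members had both signs. The median log2 difference of its 29 tested members was 0.11, as it was over all 76 microRNAs, and 15 of the 29 had a positive difference. The summed level of the members overlapped between the depots, at 4649 to 8869 CPM in perirenal fat and 5793 to 11552 in visceral fat. The common scale itself rested in part on this domain, since 30 of the 77 microRNAs behind the median ratio belong to it. With factors from the microRNAs outside the domain, a choice made after seeing the data, 0 of the 29 members and 5 microRNAs in all were called. Those 5 were MIR10B, MIR143, MIRLET7F, MIR10A and MIR221. No member of the domain was called either with CPM, with no replicate block, with the classes adjusted together, with no filter or without sheep 131. TMM factors and DESeq2 each called 4 lower and 0 higher, and edgeR called 4 lower and 2 higher. On the size factors as deposited 23 of 31 were called higher.

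Functional groups of microRNAs showed few calls. Among 15 microRNAs known to promote adipocyte formation, 2 were called higher (MIR143 and MIR148A) and none lower, with a median log2 difference of 0.22. Among 12 that restrain it, 1 was called higher (MIRLET7F) and 2 lower (MIRLET7B and MIR221), with a median of -0.08 (1.31 as deposited, where the median of all microRNAs was 1.47). Of 9 linked to insulin and glucose handling, 3 were called higher (MIR143, MIR29B-1 and MIR29B-2), with a median of 0.12. None of the 5 tested members of the brown and beige fat list was called, and their median was 0.22. None of the 6 in the miR-26 and miR-30 families, the 2 in the miR-99 and miR-125 families or the 4 tested in the miR-17 and miR-106b clusters was called. These groups overlap in members, and 18.4% of all tested microRNAs were called.

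Markers of neighbouring and resident cell types were set beside these differences. MIR194 and MIR30A, the listed microRNAs of kidney epithelium in the tables, had log2 differences of 0.44 and 0.40 and were not called (limma adjusted p = 0.265 for each). Their summed level was 4636 to 7466 CPM in perirenal fat and 3513 to 5130 in visceral fat. MIR194 alone was at 96.3 to 135 CPM in perirenal fat and 68.3 to 92.4 in visceral fat, without overlap. None of the 3 lymphocyte members (MIR150, MIR181A-1 and MIR181A-2) was called, at 23976 to 45428 CPM in perirenal and 31337 to 39939 in visceral fat. Of the 3 mesenchyme members tested, MIR199A, MIR152 and MIR218A, none was called. MIR218A, which lies in SLIT3, was nearest, with a log2 difference of -0.88 (limma adjusted p = 0.0626; 0.49 as deposited) and no overlap between the depots. MIR133, a striated muscle microRNA, ranged over 163 to 1218 normalised reads in perirenal fat and 75.5 to 1109 in visceral fat and was not called. It was highest in perirenal fat of sheep 132 and in visceral fat of sheep 131. The lists for myeloid cells, erythrocytes, liver, nervous tissue, and adrenal gland and gonad had 0 members in the tables. The part of these cell types in the depot differences was not tested.

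**Figure D3:**
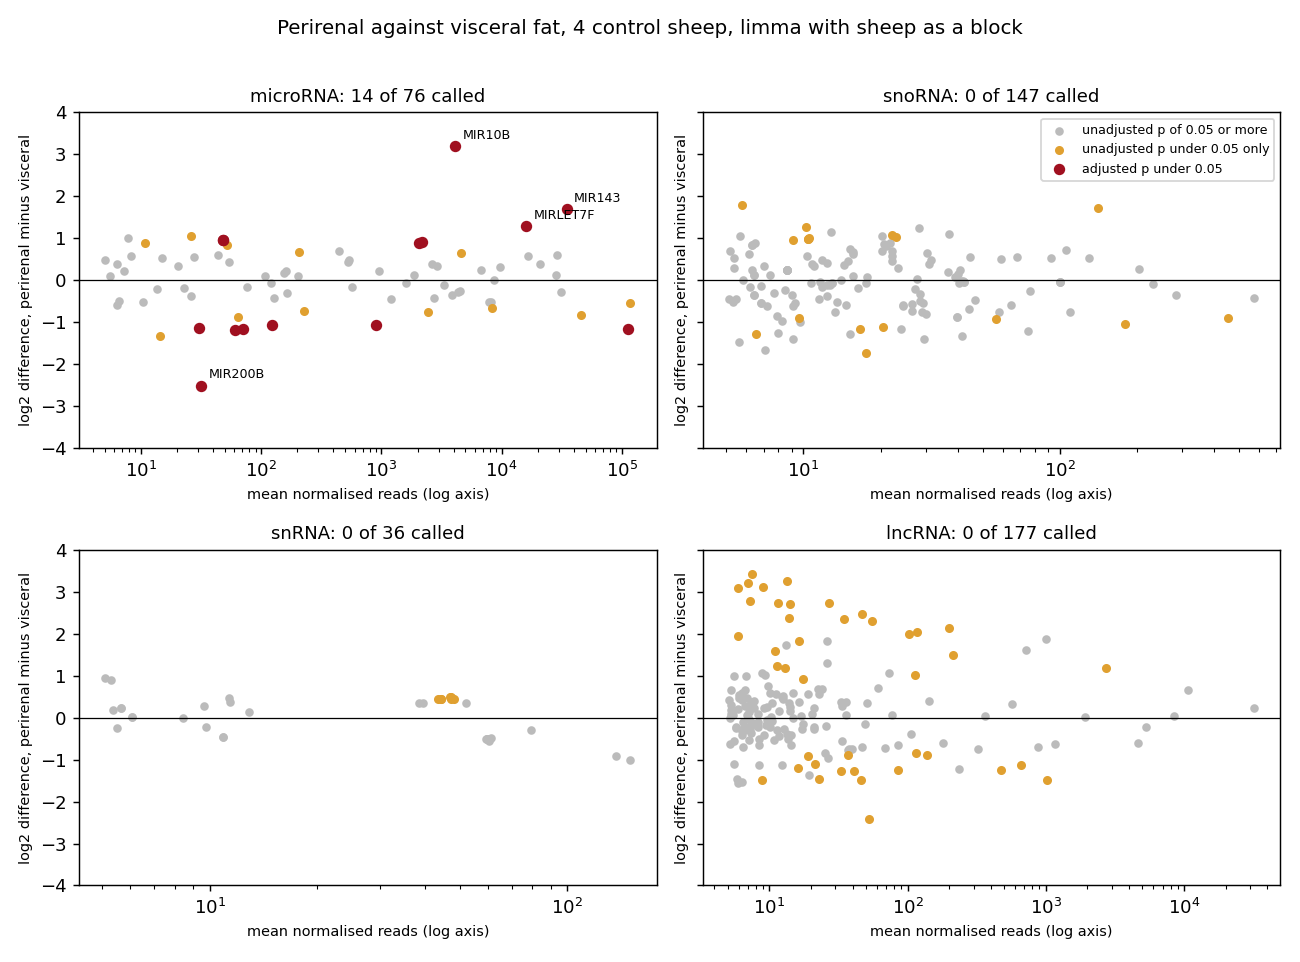
Log2 difference between perirenal and visceral fat of the 4 control sheep against the mean normalised reads (log axis) of each tested RNA, by class; red points passed the adjusted threshold, yellow ones only an unadjusted p under 0.05. Calls are confined to the 14 of 76 microRNAs tested in the limma fit, and 41 of 177 lncRNAs are yellow.

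No snoRNA, snRNA or lncRNA passed the limma threshold, with 0 of 147, 0 of 36 and 0 of 177 called (0% in each class). At an unadjusted p under 0.05 there were 17 snoRNAs, 7 snRNAs and 41 lncRNAs. The smallest adjusted p in these classes by limma was 0.0872, 0.178 and 0.0734. On the recovered reads, edgeR called 1 snoRNA, 0 snRNAs and 12 lncRNAs and DESeq2 called 0, 0 and 17. Without sheep 098 limma called 21 lncRNAs. These counts moved with the scale: limma called 27 of 166 snoRNAs with microRNA factors for all classes, 9 of 37 snRNAs and 18 of 174 lncRNAs on the factors as deposited, and 8 of 187 lncRNAs with CPM. With every class adjusted together, limma called MIR10B and MIR143 only. SnoRNAs made up a smaller share of reads in perirenal fat in sheep 131, 132 and 201 and a larger one in sheep 098, a mean paired difference of -0.542 percentage points (exact permutation p = 0.25). The share of lncRNA reads was smaller in perirenal fat in all 4 sheep, by a mean of -1.18 percentage points (exact permutation p = 0.13, the smallest possible). In sheep 132 the shares were nearly equal, at 11.24% in perirenal and 11.25% in visceral fat. Of all lncRNA reads, 41.95% lay in lncRNAs that nearly repeated the reads of a microRNA or snoRNA in each control library. Such reads counted in both classes, and their part in the difference in share was not tested.

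The 2 snoRNAs with the smallest p lie in 1 host gene. LOC114117661 had 348, 276, 287 and 357 normalised reads in perirenal fat and 610, 655, 455 and 639 in visceral fat. LOC114117663 had 110.5, 126.04, 95.9 and 128 in perirenal fat and 186, 352, 243 and 198 in visceral fat. For both the depots did not overlap, as for 10 of the 147 snoRNAs tested (6.8%), with log2 differences of -0.89 and -1.04 and limma adjusted p of 0.0872 and 0.268. They and another snoRNA, LOC114117662, are annotated inside the lncRNA LOC105609544, whose nearest protein-coding genes are ZNFX1 and DDX27. LOC114117662 had a log2 difference of -0.36 (limma adjusted p = 0.412). The prenatal T sheep did not repeat this as a group. There LOC114117661, LOC114117663 and LOC114117662 were at -0.46, -0.05 and 0.69, with limma adjusted p of 0.096, 0.896 and 0.0675.

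LOC105609544 itself, chosen after its values were seen, had a log2 difference of -1.48 (limma adjusted p = 0.0734). Its reads were those of the snoRNAs inside it: in each of the 8 libraries the 2 totals differed by 0 to 3 reads, of 579 to 3035. So the value listed for the lncRNA repeated that of its snoRNAs on another scale. MIR125B and the lncRNA LOC114118399 were a larger case of the same kind. Their reads differed by at most 4 in any control library, of 11284 to 69146. On the microRNA scale the log2 difference was -0.28 and on the lncRNA scale it was 0.23, neither of them called (limma adjusted p = 0.437 and 0.724). One set of reads thus took opposite signs in the 2 tables, because each class was scaled by its own factors. Including LOC114118399, 6 of the 177 lncRNAs tested matched 1 microRNA or snoRNA to within 5 reads or 2% in each library. Those 6 held 41.95% of all lncRNA reads.

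Several lncRNAs had large differences on few reads. LOC114115026, whose nearest protein-coding genes are ELL2 and GLRX, had 3, 34, 45 and 51 reads in perirenal fat and 1, 0, 3 and 1 in visceral fat. In normalised reads it had 3.95, 18.6, 33.3 and 45.1 against 0.548, 0, 3.93 and 1.37. The depots did not overlap, as for 19 of the 177 lncRNAs tested (10.7%), and the log2 difference was 3.26 (standard error 0.60, limma adjusted p = 0.0734). LOC101105119, near RHBG and MEF2D, had 14.5, 49.9, 127.2 and 129.96 normalised reads in perirenal fat and 8.21, 3.71, 28.8 and 9.56 in visceral fat. All 4 sheep had more in perirenal fat, and the log2 difference was 2.48 (standard error 0.52, limma adjusted p = 0.0734). Without sheep 098, limma called both of them (adjusted p = 0.032 for each). Among snRNAs, LOC114111391 and LOC114111405 had the smallest p, with log2 differences of 0.49 and 0.48 (limma adjusted p = 0.178 for both). They were higher in perirenal fat in 4 of 4 sheep, with overlapping depots. Near-identical copies may share their reads.

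Setting aside sheep 201, whose libraries came from different sets of library numbers, left 3 sheep with both depots in the same set. In those sheep 8 RNAs were called by limma, namely MIR10B, MIR143, MIRLET7F, MIR200B, MIR221, MIRLET7B, MIR380 and MIR218A. The log2 difference of MIR10B was then 2.99, that of MIR143 1.36 and that of MIRLET7F 1.20. Without sheep 098 the count rose to 49, and MIR10B stood at 3.47, MIR143 at 1.94 and MIRLET7F at 1.58. MIR10B, MIR143, MIRLET7F and MIR200B were called with any 1 of the 4 sheep left out. Without sheep as a block limma called 1 RNA, MIR10B. With a term for the library set in place of the block it called 12, of which 8 were among the 14, and MIR10A, MIR154B, MIRLET7B, MIR433, MIR148A and MIR485 were no longer called.

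The same depots were compared in the 4 prenatal T sheep, which share no library with the controls. Here 52 of 444 RNAs were called (11.7%), 27 higher in perirenal fat (6.08%) and 25 lower (5.63%). They comprised 2 of 86 microRNAs (2.33%), 24 of 172 snoRNAs (14%), 26 of 155 lncRNAs (16.8%) and 0 of 31 snRNAs (0%). Of the snoRNAs 6 were higher (3.49%) and 18 lower (10.5%), and of the lncRNAs 19 were higher (12.3%) and 7 lower (4.52%). All 4 perirenal libraries were in the early set and 3 of the 4 visceral ones in the later set, so depot and set can barely be told apart in these sheep. The count of calls was 156 without sheep 255, the 1 sheep with both libraries in the early set, and 17, 32 and 19 without sheep 185, 233 and 48.

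MIR10B was called again, with 14532, 16863, 15676 and 7272 normalised reads in perirenal fat and 1649, 1672, 1234 and 3506 in visceral fat of sheep 48, 185, 233 and 255. The depots did not overlap, and sheep 255 had both the lowest perirenal and the highest visceral value. Sheep 255, whose difference was thus the smallest, was also the 1 sheep with both libraries in the early set. In sheep 48, 185 and 233 the perirenal library was early and the visceral one later. The part of the library set in the size of this difference was not tested. The log2 difference was 2.80 (standard error 0.45, limma adjusted p = 0.0072). The other called microRNA, MIR3959 of the DLK1-DIO3 domain, chosen after its values were seen, had a log2 difference of 2.38 (limma adjusted p = 0.0254). In the control sheep MIR3959 was at 1.05 and not called (limma adjusted p = 0.0941).

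Each of the 14 microRNAs called in control sheep had a difference of the same sign in the prenatal T sheep, and 1 of the 14 was called there. Over all 76 microRNAs tested in both sets of sheep, 59 had the same sign (77.6%). MIR143 was at 1.27 (limma adjusted p = 0.174), MIRLET7F at 1.38 (0.0833), MIR200B at -2.42 (0.177) and MIRLET7B at -1.63 (0.0651). LOC114115026 and LOC101105119, which missed the threshold in the controls, were called here, with log2 differences of 3.73 and 3.03 (limma adjusted p = 0.00147 and 0.00562). LOC114118399 was called as well, at 1.35 (limma adjusted p = 0.0127), while MIR125B, which has the same reads to within 4 in each library, was at 0.28 (limma adjusted p = 0.718).

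**Figure D4:**
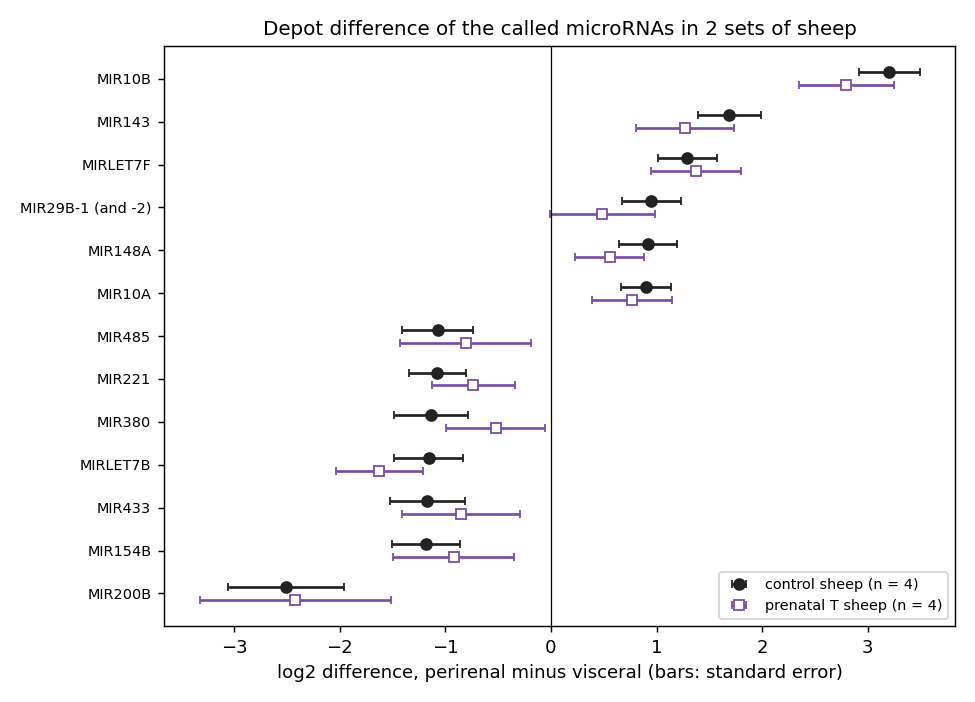
Log2 difference between perirenal and visceral fat of the 13 distinct microRNAs called in control sheep (black circles) and of the same microRNAs in the 4 prenatal T sheep (open squares), with standard errors. All pairs lie on the same side of 0, MIR10B at 3.20 and 2.80 and MIR200B at -2.51 and -2.42.

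Whether the depot difference itself differed between the 2 sets of sheep was tested with an interaction term over their 16 libraries. Limma called 0 of 452 RNAs (0%), with 23 at an unadjusted p under 0.05, and edgeR and DESeq2 called 0 as well. The smallest adjusted p by limma was 0.334. For MIR10B the interaction was -0.28 on the log2 scale with a standard error of 0.55, and for MIR143 it was -0.29. With 4 sheep per set, such standard errors leave room for sizeable differences in either direction.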

How the data were processed

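Small RNA libraries were made from adipose RNA with the NEBNext small RNA kit, per the labels' protocols. The submitters' processing notes name cutadapt 3.2, STAR 2.6.0c and featureCounts 1.6.1, with no genome build. Each deposited signal is the reads of 1 RNA divided by a size factor, and those factors differ by depot and class. Dividing by the step of the low values gave whole reads for 100% of values in every column (tolerance 1e-05). Each class was rescaled over the 8 libraries compared by the median ratio, giving normalised reads. Limma 3.58.1 in R 4.3.3 (trend) was fitted to log2(normalised reads + 1) with sheep as a block, for RNAs with a mean of at least 5, with Benjamini-Hochberg adjustment within each class at 0.05. Differences are on that log2 scale, which understates low RNAs. On simulated counts of 438 RNAs for the control comparison it called 6 of 15 RNAs changed by 1 on the log2 scale, 11 of 12 changed by 2, 12 of 12 changed by 3 and 2 of 399 unchanged ones. The simulation gave all RNAs the same dispersion and both depots of a sheep the same animal effect. It held no library-set effect and no library unlike its group, so these rates need not hold for the real libraries.

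Both libraries of a pair come from 1 animal, which is what pairs them. Deviations from the group means correlated at 0.53, 0.20, 0.42 and -0.30 for sheep 098, 131, 132 and 201. In the 12 pairs of different sheep the correlation was -0.54 to 0.42, with a median of -0.23 against 0.31 for the same sheep. It was over 0.1 in 4 of those 12 pairs and in 3 of the 4 same-sheep pairs. Nothing says how sheep were sampled beyond their numbers. With sheep as a block, limma p-values rest on the spread of the depot difference among these animals. Limma draws that spread partly from the other RNAs of the class. Alternatives were other scalings, pseudocounts and filters, no block, a library-set term, edgeR 4.0.16, DESeq2 1.42.0 on the recovered reads, and leaving out each sheep.

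Text names up to 24 called microRNAs and the next 3, the called or 2 foremost RNAs of other classes, and up to 3 members of each list by p; RNAs outside that rule are said to be chosen after their values were seen, or are named for an overlap of reads. Members and lists were chosen with earlier results of these data known. Gene names come from RefSeq (ARS-UI_Ramb_v3.0), where 105 of 105 microRNA symbols matched. Of the other classes, 621 of 694 snoRNA, 1010 of 1148 snRNA and 1372 of 2973 lncRNA symbols matched. Its coordinates were used to find the genes that an RNA lies in or near, and none is printed. Counting error sets the precision of low RNAs, and reads carry no molecular identifiers.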

Additional observations from a re-analysis of the deposited data

Results flagged for a closer look

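Of 100 groups of 4 control values examined (1 RNA or read total in 1 depot each), 17 had 1 library far from the other 3. Chance flags about 1 group in 20 where values are normally distributed, which untransformed reads need not be. The RNAs were named partly by their p and share libraries, so these groups are not independent. In 13 of the 17 it was the perirenal library of sheep 098. That library had 283463 reads in all against at least 1164153 in the others, and a snoRNA share of 2.42% against at most 0.459%. Higher than the other perirenal libraries there were MIRLET7B (167810 normalised reads, others up to 58727), MIR181A-1 (12136, others up to 5515), MIR181A-2 (12487, others up to 5702), MIR106B (2010, others up to 787), MIR27A (3989, others up to 2960), MIR485 (211, others up to 48.6), MIR433 (116, others up to 30.2) and MIR200C (18.4, others up to 6.51). Lower there were MIR152 (282 normalised reads, others from 739) and the identical pair MIR29B-1 and MIR29B-2 (44.8 each, others from 68.6). This is also the only perirenal control library with a later library number, so the part of the library set and that of the animal cannot be told apart.

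Sheep 132 gave the other 4. Its perirenal library had 1218 normalised reads of MIR133 (others up to 306) and 3470 of MIR30A (others up to 2873). Its visceral library had 36.6 normalised reads of the lncRNA LOC101110918 (others up to 19.1) and a lncRNA share of 11.3% (others from 13.3%). LOC101110918 had the reads of the snoRNA LOC114114247 to within 3 in each control library.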

How the results depend on the processing

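Against 14 calls in control sheep, limma gave 91 on the size factors as deposited, 42 with microRNA factors for all classes, 29 with a mean of at least 1, 33 with no filter, 1 with no replicate block, 2 with the 4 classes adjusted together, 5 with factors from outside DLK1-DIO3 (chosen after seeing the data) and 57 in the early set alone with no replicate block; edgeR gave 33 and DESeq2 29. Leaving out 1 sheep gave 8 to 49 calls, and a library-set term with no block 12. MIR10B was called in each of its 20 alternatives, MIR143 in all but the fit with no replicate block. In the prenatal T sheep, against 52 calls, there were 148 as deposited, 172 with microRNA factors, 33 with a mean of at least 20, 28 with no replicate block, 33 with no block and a set term, and 17 to 156 leaving out 1 sheep. The interaction gave 1 call with no block and a set term and 0 otherwise.

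As deposited, these log2 differences of RNAs called on either scale turned positive in control sheep: MIR221 0.31, MIR154B 0.18, MIRLET7B 0.23, MIR433 0.19, MIR380 0.20, MIR485 0.30, MIR125B 1.11, MIR29A 1.33, MIR30B 0.97, MIR106B 0.96, MIR16B 1.11, MIR23A 1.05, MIR181A-1 0.87, MIR181A-2 0.88 and MIR150 0.97. MIRLET7C (0.58), MIR218A (0.49) and MIR200C (0.75), called on neither scale, turned positive too. In prenatal T sheep the named RNAs called on either scale that turned positive were MIR29A 1.12, MIR30B 0.98, MIR30A 1.40, MIR16B 1.12, MIR27A 1.08 and MIR23A 1.14. The snRNA share, 0.0523 percentage points higher in perirenal fat, was -0.113 without sheep 132, at most 0.16 without another sheep, and -0.0862 as deposited. Beyond the scale itself, the cause was not tested. MIR200B rested on 2 to 72 reads a library, which limits its precision.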
